A study of Mus musculus with 6 samples.

Results

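The clustered protocadherins are cell surface adhesion proteins encoded side by side in the alpha, beta and gamma gene clusters. Members were chosen by gene symbol, as every gene named Pcdha, Pcdhb or Pcdhg with a number or a C-type suffix. GENCODE M21, the mouse annotation used for names, holds 58 such genes, of which 14 are alpha, 22 beta and 22 gamma. The deposited tables hold 24 of them among 35275 Ensembl gene IDs, namely all 22 beta genes, 1 alpha ID and 1 gamma ID, and the other 34 were not analysed here. All 24 had a read in at least 1 library and entered the test.

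Clustered protocadherins are best known as barcodes of single neurons. Each neuron uses a small, partly random set of them, the proteins form mixed dimers in the membrane, and matching sets recognise each other on apposed membranes, which lets the branches of a neuron tell themselves from those of its neighbours. In the alpha and gamma clusters each variable exon, which encodes the extracellular, transmembrane and proximal cytoplasmic parts, is spliced to shared constant exons, whereas a beta gene encodes its whole protein without them. In the mouse spinal cord the gamma cluster is known to be needed for the survival of interneurons and for synapse formation.

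The locus lies on chromosome 18 of GRCm38 (mm10), from position 36930184 to 37841873 on the plus strand in GENCODE M21, in the order alpha, beta, gamma. The beta genes take the stretch from 37264938 to 37524479. The alpha ID (ENSMUSG00000007440) has the symbol Pcdha11 in GENCODE M21, which gives that symbol to a second ID as well, and the gamma ID (ENSMUSG00000023036) has the symbol Pcdhgc4. Since alpha and gamma genes share their constant exons, and no source used here gives the exons over which these 2 IDs were counted, their reads may come from other genes of the same cluster. They are therefore called the alpha row and the gamma row, and no level per length is given for them.

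The samples are labelled as neurons of the spinal cord, from postnatal day 3 mice of the outbred ICR stock. TG were injured mechanically and incubated with 75% hydrogen, NG were injured mechanically, and IG were untreated controls; all were kept in DMEM culture medium. There were 2 RNA-seq libraries per group, called A (deeper) and B (shallower) in each. The labels do not say whether the libraries of a group stem from separate animals or cultures, and a p-value then reflects only their own spread, which may be technical. The deeper libraries held 23911141 reads assigned to genes in TG, 20069421 in NG and 23516544 in IG, and the shallower ones 16790032, 15920819 and 15749447 in the same order. Levels are normalised reads, that is reads divided by a size factor of the library, and ± marks the SD over the 2 libraries of a group unless SE is named. A member is called higher or lower at a Benjamini-Hochberg adjusted p under 0.05 in limma, a two-sided linear model test run on log2(normalised reads + 1) over 24511 genes.

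The libraries held RNA of several cell types besides neurons. A list of 12 neuron markers, which includes Map2, Syt1, Syp and the neurofilament genes, summed to 109517 and 107455 normalised reads in TG, 50866 and 48920 in NG, and 90727 and 89799 in IG, and none of them was at 0 in any library. The 8 oligodendrocyte markers, led by genes of myelin, summed to far more, from 1196519 in NG A to 2377127 in TG B. The 5 skeletal muscle markers summed to 11399 and 11289 in TG, 75388 and 79928 in NG, and 8139 and 8480 in IG. The 6 fibroblast and meninges markers summed to 17449 and 17161 in TG, 111882 and 113120 in NG, and 37727 and 38276 in IG. The 4 fat markers summed to 44.2 and 47.9 in TG, 5263 and 5097 in NG, and 70.4 and 83.5 in IG; among them only Retn was at 0 in a library, of IG. All 12 neuron markers were lower in NG than in IG, while all 5 muscle, all 6 fibroblast and all 4 fat markers were higher, so that these marker sums moved with NG. The 4 Schwann cell markers summed to 34230 and 35139 in TG, 108423 and 108922 in NG, and 135261 and 142078 in IG, lowest in TG. The 5 ependymal markers summed to 892 and 925 in TG, 236 and 261 in NG, and 519 and 586 in IG. In bulk RNA, fewer cells of a type and less RNA per cell cannot be told apart.

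Clustered protocadherins were a small part of each library. The 24 members took 0.0430% and 0.0444% of the assigned reads in the TG libraries, 0.0215% and 0.0235% in those of NG, and 0.0434% and 0.0440% in those of IG. The 22 beta genes together had 1672 and 1121 reads in TG, 646 and 486 in NG, and 1627 and 1020 in IG. A beta gene had between 0 and 184 reads in a library, with a median of 38, so that the beta values rest on few reads and carry wide errors. The gamma row had the most reads, from 2879 in NG B to 6982 in IG A, and the alpha row had 381 in NG B to 2185 in TG A.

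**Figure D1:**
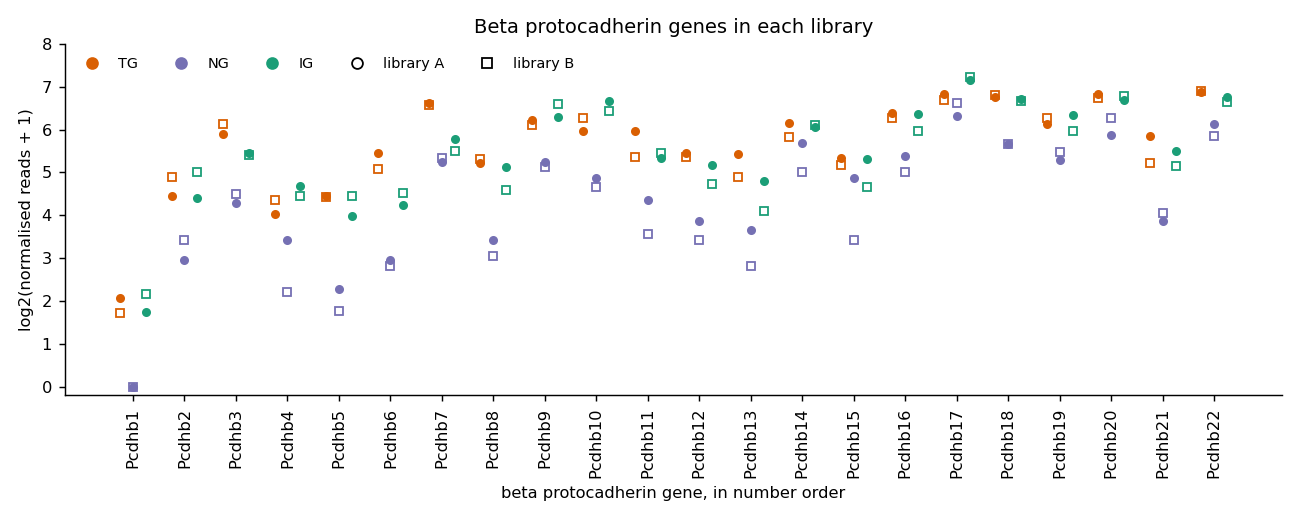
Log2 of normalised reads plus 1 (vertical axis) for each of the 22 beta protocadherin genes (horizontal axis, in number order) in TG, NG and IG; circles are library A and open squares library B. Both NG libraries lie below both IG libraries for every gene but Pcdhb15, and Pcdhb1 is at 0 in NG.

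Per unique kilobase, that is per 1000 exon bases that no other gene of the tables covers, the beta genes spanned a wide range of levels. Over the 6 libraries Pcdhb20 had the highest level, at 26.4 normalised reads per kilobase, followed by Pcdhb17 at 24.5, while the median gene had 8.87 and Pcdhb1 had 0.728. Pcdhb20 had 30.7 ± 1.29 per kilobase in TG, 18.7 ± 3.69 in NG and 29.8 ± 1.21 in IG (SD, n = 2). Pcdhb17 had 23.1 ± 1.51 per kilobase in TG, 18.9 ± 2.87 in NG and 31.3 ± 1.09 in IG (SD, n = 2). Pcdhb20 and Pcdhb17 overlapped in IG and in NG and stood apart in TG by more than the spread of their libraries. Next in order, after Pcdhb10, were Pcdhb9 at 21.1, Pcdhb7 at 17.5 and Pcdhb18 at 17.3 per kilobase over the 6 libraries, and the lowest besides Pcdhb1 were Pcdhb5 at 3.93 and then Pcdhb4. The order was much alike in the 3 groups, with Spearman's rho across the 22 genes of 0.93 between TG and NG, 0.93 between TG and IG and 0.95 between NG and IG, given as a description of genes that share libraries.

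NG was compared with IG for the difference that goes with mechanical injury. Most of the measured clustered protocadherins were lower in NG. Limma called 20 of 24 members lower and 0 higher, where it called 20.4% of all genes lower, 19.7% higher and 40.1% in either direction. The 24 log2 fold changes were all negative, with a median of -1.24, or -1.13 with Pcdhb1 set at its bound, beside a median of 0 over all genes. The authors' deposited table has 15 of the 24 lower, where 16.2% of its genes are. The 4 members not called were Pcdhb7, Pcdhb13, Pcdhb14 and Pcdhb15. In 23 members both NG libraries lay below both IG libraries, which 30.2% of all genes did. Fewer members, and fewer of all genes, were called in every fit with a library left out. The median log2 fold change of the members lay between -1.31 and -1.06 in these fits. The neuron marker list moved the same way, with 12 of 12 lower and a median log2 fold change of -1.03. The sums of the 8 oligodendrocyte and 8 astrocyte markers were also lower, at 0.640-fold and 0.702-fold, though the astrocyte marker S100b was called higher. The part of these lists in the members' difference was not tested.

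The alpha row had 539 and 459 normalised reads in NG, against 1239 and 1277 in IG. Both NG libraries were under the lower IG library by a wide margin, and the log2 fold change was -1.34 ± 0.10 (SE; limma, adjusted p = 1.9e-05). The gamma row had 3020 and 3469 normalised reads in NG, against 5405 and 5581 in IG. The groups did not overlap here either, with a log2 fold change of -0.76 ± 0.08 (SE; limma, adjusted p = 1.6e-04). The beta genes summed to 628 and 586 normalised reads in NG, against 1260 and 1183 in IG, a fold of 0.497 for NG over IG. For such a sum of 2 against 2 libraries the exact permutation test gave its smallest possible two-sided p, 0.333.

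**Figure D2:**
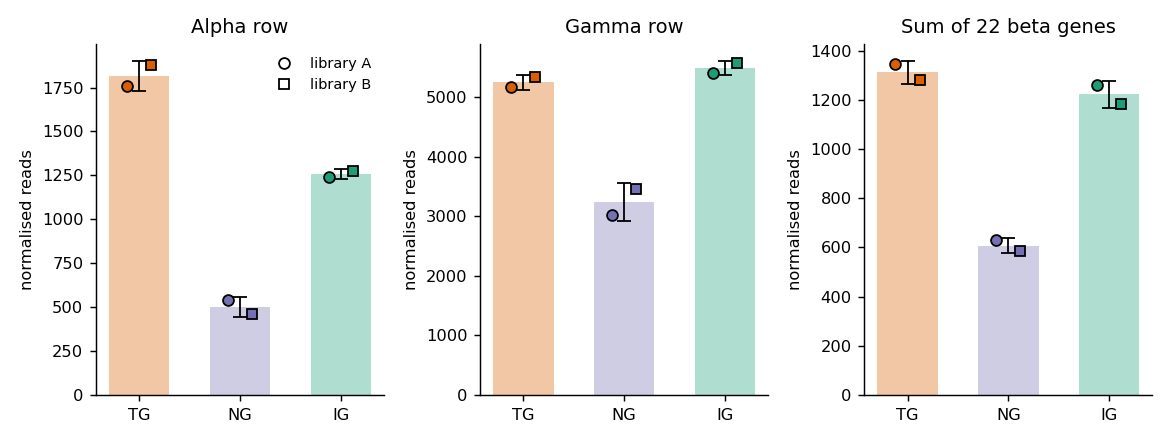
Normalised reads (vertical axis, from 0) of the alpha row, the gamma row and the sum of the 22 beta genes in TG, NG and IG; bars are means, error bars SD over the 2 libraries, points the libraries. NG is lowest in each panel, and TG stands above IG in the alpha row, with means of 1818 and 1258.

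Among the beta genes with reads in NG the most negative fold changes were those of Pcdhb5 and Pcdhb10. Pcdhb5 had 3.89 and 2.41 normalised reads in NG, from 4 and 2 reads, against 14.7 and 20.9 in IG, from 19 and 18 reads. Its log2 fold change was -2.18 ± 0.40 (SE; limma, adjusted p = 0.0027). Pcdhb1, the first gene of the cluster, had 0 reads in both NG libraries, against 3 and 3 reads in IG. Set against a floor of 3 reads over the NG group, the IG mean was 1.73-fold higher. This bound leaves out the counting error of the 6 IG reads. The fitted log2 fold change of Pcdhb1, -1.95, is therefore no measure of size, and the authors' deposited test did not call it (adjusted p = 0.43). Pcdhb10, among the more abundant beta genes, had 28.2 and 24.1 normalised reads in NG and 101 and 85.8 in IG, and its log2 fold change was -1.80 ± 0.23 (SE; limma, adjusted p = 3.6e-04). The other 15 beta genes called lower had log2 fold changes between -1.76 for Pcdhb4 and -0.68 for Pcdhb20.

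The 4 beta genes that did not pass were of different kinds. Pcdhb7 had 36.9 and 39.8 normalised reads in NG and 54.2 and 44.1 in IG, and its log2 fold change was the smallest of all members, at -0.34 ± 0.21 (SE; limma, adjusted p = 0.26). Pcdhb14 had 50.5 and 31.3 in NG and 65.8 and 68.4 in IG (adjusted p = 0.064 in limma). Pcdhb13 had 11.7 and 6.03 in NG and 27.1 and 16.2 in IG (adjusted p = 0.054 in limma). Both NG libraries of these 3 genes lay below both IG libraries. Pcdhb15, with 28.2 and 9.64 in NG and 38.7 and 24.4 in IG, was the only member whose groups overlapped.

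TG was compared with NG for the difference that goes with hydrogen after injury. Most of the measured clustered protocadherins were higher in TG. Limma called 21 of 24 members higher and 0 lower, where it called 22.2% of all genes higher, 23.1% lower and 45.3% in either direction. The median log2 fold change was 1.37, or 1.34 with Pcdhb1 at its bound, beside 0 over all genes. The authors' deposited table has 19 of the 24 higher, where 18.7% of its genes are. In 24 of 24 members both TG libraries lay above both NG libraries, which 32.0% of all genes did. The median log2 fold change of the members was 1.34 without TG A and 1.25 without TG B. Fewer members, and fewer of all genes, were called in these 2 fits. NG libraries enter both this comparison and the preceding one, so the 2 sets of fold changes are not independent. All 12 neuron markers were higher in TG than in NG, with a median log2 fold change of 1.19, as were all 5 ependymal markers, while 3 of 4 Schwann cell markers were lower and 1 was higher. The oligodendrocyte and astrocyte marker sums were 1.95-fold and 1.23-fold for TG over NG. The part of all these markers in the members' difference was not tested.

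The alpha row had 1758 and 1878 normalised reads in TG, against 539 and 459 in NG. The lower TG library was far above the higher NG library, with a log2 fold change of 1.87 ± 0.10 (SE; limma, adjusted p = 2.2e-06). The gamma row had 5167 and 5348 in TG, against 3020 and 3469 in NG, with a log2 fold change of 0.70 ± 0.08 (SE; limma, adjusted p = 1.9e-04). The beta genes summed to 1345 and 1279 in TG and 628 and 586 in NG, a fold of 2.16.

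Of the beta genes with reads in NG, those that rose most in TG were Pcdhb5, Pcdhb6 and Pcdhb8, all in the first part of the cluster. Pcdhb5 had 20.9 and 20.5 normalised reads in TG and 3.89 and 2.41 in NG, with a log2 fold change of 2.41 ± 0.40 (SE; limma, adjusted p = 0.0012). Pcdhb6 had 42.6 and 33.1 in TG and 6.80 and 6.03 in NG, with a log2 fold change of 2.38 ± 0.34 (SE; limma, adjusted p = 5.1e-04). Pcdhb8 had 36.2 and 38.8 in TG and 9.72 and 7.23 in NG, with a log2 fold change of 2.03 ± 0.34 (SE; limma, adjusted p = 0.0013). In each of these the lower TG library was well above the higher NG library. Pcdhb1 had 4 and 2 reads in TG and 0 in NG. Its TG mean was 1.75-fold above the floor, again without the counting error of its TG reads. The authors' deposited test did not call it here either (adjusted p = 0.42).

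Pcdhb14, Pcdhb15 and Pcdhb17 did not pass in TG against NG. Pcdhb17, among the most abundant beta genes, had 113 and 103 normalised reads in TG and 78.7 and 97.6 in NG, with a log2 fold change of 0.29 ± 0.17 (SE; limma, adjusted p = 0.21). Its 2 TG libraries lay above its 2 NG libraries, but NG B came close. Pcdhb14 had 70.8 and 55.9 in TG and 50.5 and 31.3 in NG (adjusted p = 0.090 in limma). Pcdhb15 had 39.4 and 35.4 in TG and 28.2 and 9.64 in NG (adjusted p = 0.092 in limma), with the spread between its NG libraries the widest of these 3 genes on the log2 scale.

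**Figure D3:**
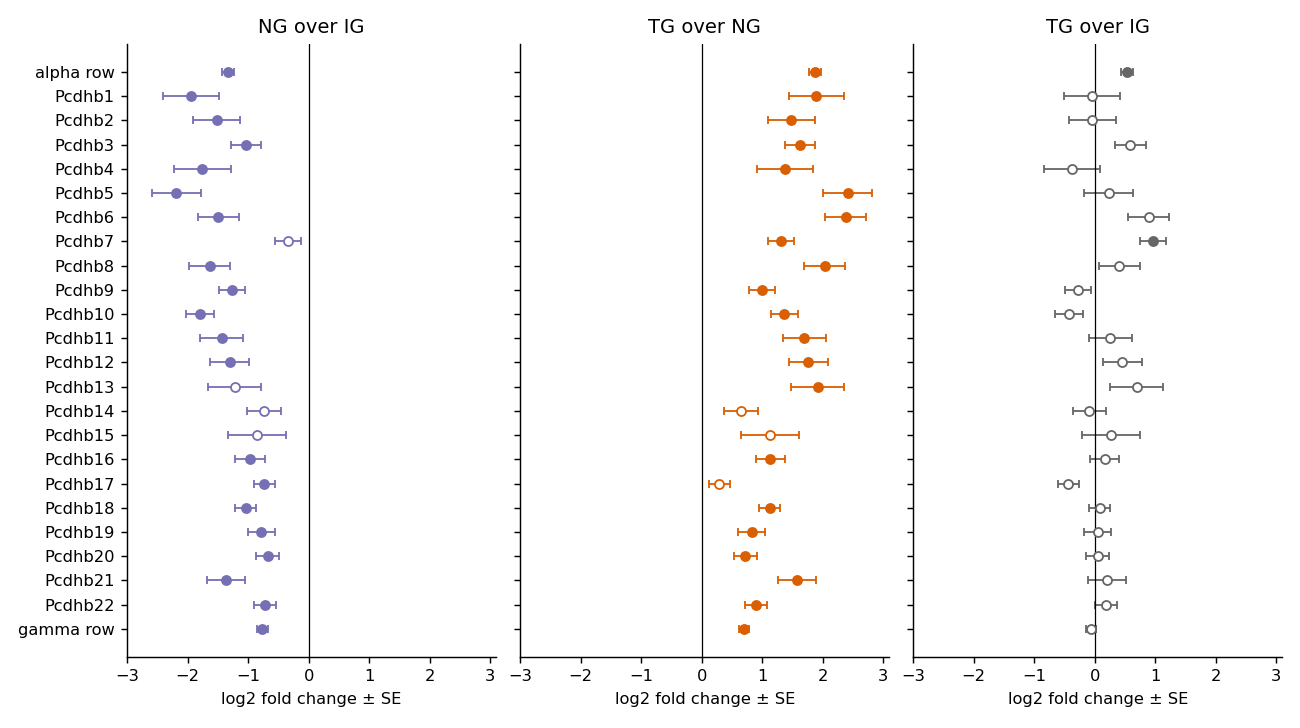
Log2 fold change ± SE (horizontal axis) of the alpha row, the 22 beta genes and the gamma row (vertical axis, in the order of the locus) for NG over IG, TG over NG and TG over IG; filled points passed an adjusted p of 0.05 in limma. All points are below 0 for NG over IG and above 0 for TG over NG, whereas for TG over IG 2 points are filled, the alpha row and Pcdhb7.

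Few members passed in TG against IG, though with 2 libraries per group the lack of a call does not show equal levels. Limma called 2 of 24 higher in TG and 0 lower, where it called 4.16% of all genes higher, 7.18% lower and 11.3% in either direction, and the median log2 fold change was 0.17, beside 0.01 over all genes. At an unadjusted p under 0.05 limma had 4 members higher, where 11.2% of all genes were, and 1 lower, Pcdhb17, where 13.1% were. The authors' deposited table also has 2 members higher, where 4.46% of its genes are, and 0 lower, where 6.69% are. Both TG libraries lay above both IG libraries in 9 members and below them in 5, beside 25.6% and 24.1% of all genes. With a library left out the log2 fold changes of the 2 called members stayed between 0.48 and 0.58 for the alpha row and between 0.82 and 1.11 for Pcdhb7. The members called then numbered 0 without IG A, IG B, TG A or TG B, and 1 without NG A or NG B. All genes called fell to 76, 81, 2 and 0 without IG A, IG B, TG A and TG B, so these fits could hardly call any gene. Of the 4 Schwann cell markers 3 were lower in TG than in IG. Of the 5 ependymal markers 0 passed in limma, 3 of them with an unadjusted p under 0.05. The sum of the 12 neuron markers was 1.20-fold for TG over IG, with Snap25, Syt1, Map2 and Syp called higher and the others not called. The sums of the oligodendrocyte, astrocyte and fibroblast markers were 1.25-fold, 0.864-fold and 0.455-fold. The part of these lists in the members' values was not tested.

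The alpha row was one of the 2, with 1758 and 1878 normalised reads in TG, against 1239 and 1277 in IG. Both TG libraries were above both IG libraries, and the log2 fold change was 0.53 ± 0.10 (SE; limma, adjusted p = 0.010). Pcdhb7 was the other, with 98.1 and 94.7 in TG and 54.2 and 44.1 in IG, and a log2 fold change of 0.97 ± 0.21 (SE; limma, adjusted p = 0.024). The gamma row had 5167 and 5348 in TG and 5405 and 5581 in IG, with a log2 fold change of -0.06 ± 0.08 (SE; limma, adjusted p = 0.70). Here TG libraries lay just under those of IG. The beta genes summed to 1345 and 1279 in TG and 1260 and 1183 in IG, a fold of 1.07 with the lower TG library just above the higher IG library. Of the 22 beta genes, 15 had a mean above that of IG and 7 below, from 0.737-fold for Pcdhb17 to 1.96-fold for Pcdhb7.

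The ratios between the alpha row, the gamma row and the beta sum differed between the groups. The balance between the whole clusters was not tested, since most alpha and gamma genes were not analysed. Within a library, the reads of the alpha row divided by those of the gamma row, a ratio that needs no scaling between libraries, were 0.340 and 0.351 in TG, 0.179 and 0.132 in NG, and 0.229 and 0.229 in IG. The groups did not overlap in any pair. Beta reads over gamma row reads were 0.260 and 0.239 in TG, 0.208 and 0.169 in NG, and 0.233 and 0.212 in IG, where each group was close to the next. Beta reads over alpha row reads were 0.765 and 0.681 in TG, 1.16 and 1.28 in NG, and 1.02 and 0.926 in IG.

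Set against neuron marker reads of the same library, the order of the groups depended on which neuron markers were used. Per 1000 reads of the 12 neuron markers there were 12.1 ± 0.268 beta reads in TG, 12.2 ± 0.262 in NG and 13.5 ± 0.499 in IG (SD, n = 2). Thus TG and NG overlapped, and both lay below IG. The alpha row had 16.1 and 17.5 reads per 1000 neuron marker reads in TG, 10.6 and 9.39 in NG, and 13.7 and 14.2 in IG, with the 3 groups apart and in the same order as in normalised reads. The gamma row had 47.2 and 49.8 in TG, 59.4 and 70.9 in NG, and 59.6 and 62.2 in IG, so that NG and IG overlapped and TG was lowest. The 12 non-clustered protocadherins, single genes outside the 3 clusters of which Pcdh1 and Pcdh12 lie shortly past the gamma end of the locus, had 98.0 and 97.9 in TG, 59.6 and 63.9 in NG, and 97.8 and 93.1 in IG. A second list, of the 5 genes Gad1, Gad2, Slc32a1, Slc6a5 and Slc17a6 that mark inhibitory and excitatory neurons of the spinal cord, was used in the same way after the data were seen. These 5 genes summed to 13602 and 13265 normalised reads in TG, 2827 and 2534 in NG, and 9491 and 9237 in IG. Per 1000 of their reads there were 98.9 and 96.4 beta reads in TG, 222 and 231 in NG, and 133 and 128 in IG. The alpha row then had 129 and 142 in TG, 191 and 181 in NG, and 131 and 138 in IG. Against this list both were highest in NG, as were the gamma row and the non-clustered genes, so that NG was lowest in the alpha row with one list and highest with the other. With 2 libraries per group none of these ratios can reach an exact permutation p below 0.333.

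**Figure D4:**
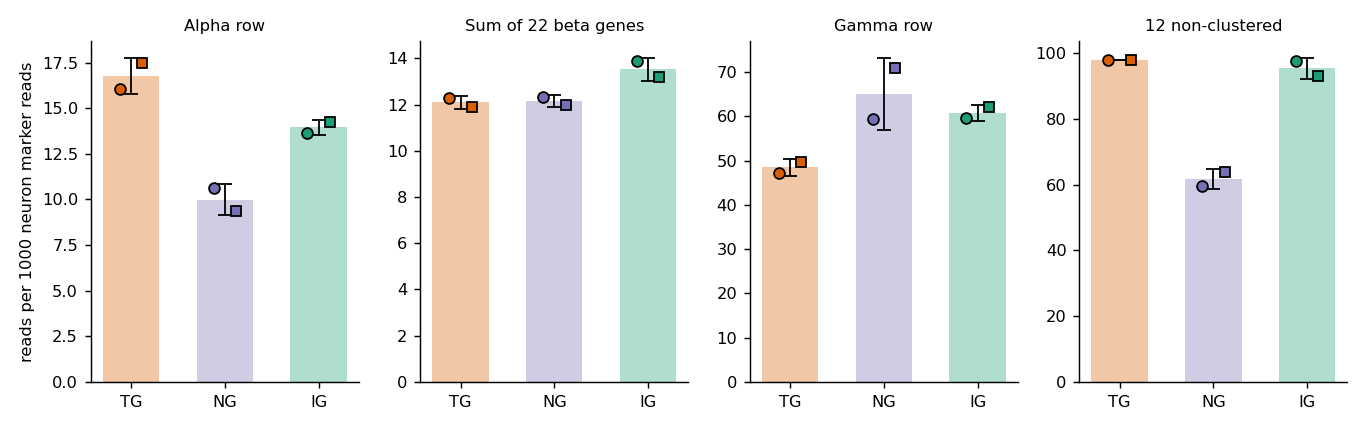
Reads per 1000 reads of 12 neuron marker genes in the same library (vertical axis, from 0) for the alpha row, the 22 beta genes together, the gamma row and 12 non-clustered protocadherins, in TG, NG and IG; bars are means, error bars SD over the 2 libraries, circles library A and squares library B. Beta values lie between 11.9 and 13.9 in all libraries, the alpha row and the non-clustered genes are lowest in NG, and the gamma row is lowest in TG.

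The make-up of the beta reads also varied between groups. Pcdhb17 took 8.37% and 8.03% of the beta reads in TG, 12.5% and 16.7% in NG, and 11.3% and 12.6% in IG, so its share was lowest in TG. Pcdhb7 took 7.30% and 7.40% in TG, 5.88% and 6.79% in NG, and 4.30% and 3.73% in IG, with no overlap between any 2 groups. Pcdhb10 took 4.61% and 5.98% in TG, 4.49% and 4.12% in NG, and 7.99% and 7.25% in IG, highest in IG. Pcdhb6 took 3.17% and 2.59% in TG, 1.08% and 1.03% in NG, and 1.41% and 1.86% in IG, highest in TG. Pcdhb18, by contrast, took 7.95% to 8.65% in TG, 7.89% to 8.44% in NG and 8.30% to 8.53% in IG. Pcdhb18 was singled out after its values were seen, and as shares sum to a whole, a lower share of 1 gene raises the others.

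**Figure D5:**
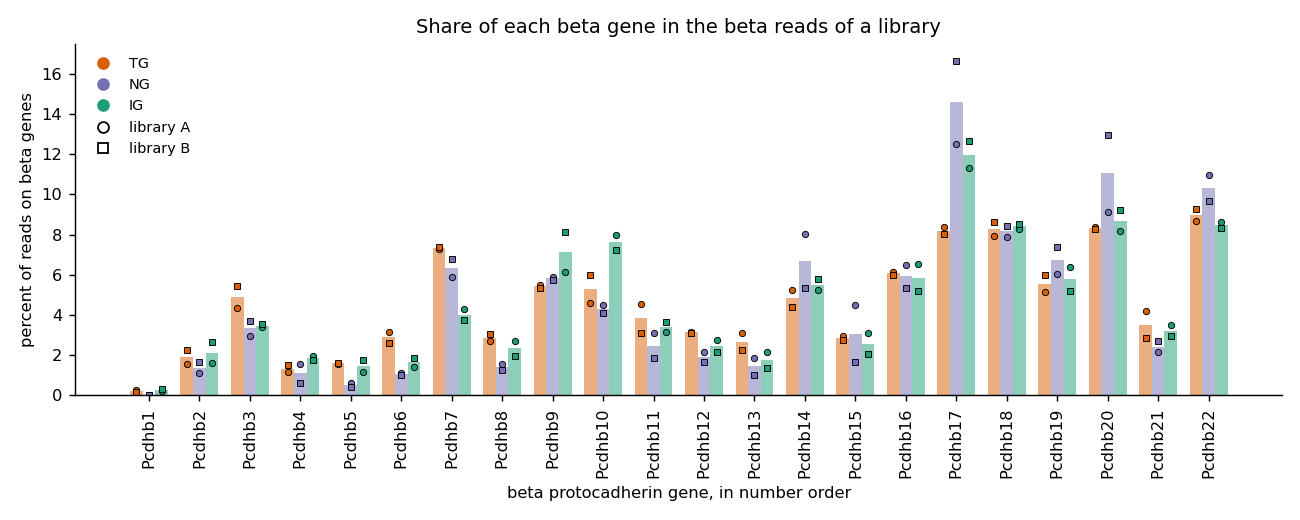
Percent of the reads on the 22 beta genes that fell on each gene (vertical axis, from 0) in TG, NG and IG; bars are means over 2 libraries, circles library A and squares library B. Pcdhb17 has the largest share in NG and IG, and Pcdhb7 has a larger share in TG and NG than in IG.

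Sums over the first and the second part of the beta cluster were set side by side. Pcdhb1 to Pcdhb11 summed to 168 ± 12.6 normalised reads in NG and 430 ± 3.25 in IG (SD, n = 2), a fold of 0.390. Pcdhb12 to Pcdhb22 summed to 439 ± 17.2 in NG and 791 ± 57.2 in IG (SD, n = 2), a fold of 0.555. For TG over NG the folds of the same sums were 2.93 and 1.87, and for TG over IG 1.14 and 1.04. Genes of the first part also had lower levels. Across the 22 genes the log2 fold change of NG over IG had a Spearman's rho of 0.63 with position along the cluster and of 0.72 with mean level, a description in which the genes share libraries and the pseudocount shrinks low genes. The division of the cluster was chosen after values were known, and position and level were not told apart.

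Transcripts of several proteins that set which protocadherin promoters are used were measured. Of 14 such genes, which include those of the insulator protein Ctcf, cohesin subunits and DNA methyltransferases, 2 were higher and 2 lower in NG than in IG, and 10 did not pass, with a median log2 fold change of 0.06. For this list and those that follow, limma called 19.7% of all genes higher and 20.4% lower for NG over IG. The shares were 22.2% and 23.1% for TG over NG, and 4.16% and 7.18% for TG over IG. The counts of these 14 genes stood close to those shares. Dnmt3a, a de novo DNA methyltransferase, fell to 1823 ± 66.9 normalised reads in NG, against 3593 ± 0.682 in IG (log2 fold change -0.98). Setdb1, a histone H3 lysine methyltransferase, fell to 412 ± 49.4 in NG, against 551 ± 35.7 in IG (log2 fold change -0.42). Dnmt3b, a methyltransferase known for methylating protocadherin promoters in the mouse, rose to 64.1 ± 8.19 in NG, against 32.7 ± 7.91 in IG (log2 fold change 0.96). Ctcf, which links the promoters to their enhancers, rose to 1189 ± 60.3 in NG, against 960 ± 48.3 in IG (log2 fold change 0.31). In TG against NG 3 of the 14 were higher and 4 lower: Dnmt3a had a log2 fold change of 1.25 and Setdb1 of 0.43, while Dnmt3b had -1.50 and Rest, a repressor of neuronal genes, -0.49. In TG against IG only Dnmt3a passed, with 4325 ± 64.5 in TG, against 3593 ± 0.682 in IG (log2 fold change 0.27).

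Most of the listed partners of the protocadherin cytoplasmic domains were lower in NG. Of 14 genes for kinases, the WAVE actin complex and other effectors, 2 were higher and 10 lower in NG than in IG. Fyn, a Src family kinase, fell to 3441 ± 21.2 normalised reads in NG, against 7511 ± 376 in IG (log2 fold change -1.13), and Wasf1, the WAVE1 protein, fell to 501 ± 7.82 in NG, against 1032 ± 74.6 in IG (log2 fold change -1.04). Ptk2b, the kinase PYK2 that gamma and alpha protocadherins are known to bind and inhibit, rose to 426 ± 39.7 in NG, against 248 ± 19.9 in IG (log2 fold change 0.77). Brk1, a small WAVE complex subunit, rose to 4339 ± 16.0 in NG, against 2799 ± 137 in IG (log2 fold change 0.63). In TG against NG 8 were higher and 2 lower, with Abi2 at a log2 fold change of 1.27 and Cyfip2 at 1.17, both WAVE complex subunits, and Ptk2b at -1.12 and Brk1 at -0.50. In TG against IG 0 were higher and 2 lower, namely Cyfip1 (log2 fold change -0.49) and Fyn (log2 fold change -0.29).

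Most of the other adhesion genes listed were likewise lower in NG than in IG. Of the 12 non-clustered protocadherins 10 were lower in NG than in IG, with a median log2 fold change of -1.43. Pcdh9 was the most negative, with a log2 fold change of -2.54 and a mean of 339 ± 1.15 normalised reads in NG, against 1980 ± 268 in IG. Next came Pcdh17, with a log2 fold change of -2.11 ± 0.08 (SE) and a mean of 347 in NG, against 1507 in IG. Pcdh12, which is known from blood vessels, was higher, with 73.1 ± 5.74 in NG, against 46.4 ± 3.32 in IG (log2 fold change 0.64). In TG against NG 10 of the 12 were higher, Pcdh9 by 2.92 and Pcdh17 by 2.49 on the log2 scale. In TG against IG 3 were higher, among them Pcdh19 with 538 ± 4.46 in TG and 348 ± 36.4 in IG (log2 fold change 0.63). The 10 adhesion molecules of other families that mark neuronal identity, the neurexins, neuroligins, sidekicks and Dscam proteins, were all lower in NG than in IG (median log2 fold change -1.17) and 9 were higher in TG than in NG. Dscam, which serves self-avoidance in the retina, had 1074 ± 33.4 in TG, 202 ± 31.4 in NG and 855 ± 43.8 in IG. Sdk1 was the exception in TG, with 231 ± 29.3 in TG, 228 ± 23.2 in NG and 431 ± 33.1 in IG, and was lower in TG than in IG (log2 fold change -0.90).

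The genes around the locus were called in both directions, at shares near those of all genes. Of 20 protein-coding genes around or within the locus, Pcdh1 and Pcdh12 left out, 5 were higher and 4 lower in NG than in IG. Limma called 19.7% of all genes higher and 20.4% lower. The median log2 fold change of the 20 genes was 0.05. Their sum was 15843 and 15836 normalised reads in NG, against 16088 and 16275 in IG, a fold of 0.979, and in TG it was 17503 and 17573, a fold of 1.11 over NG and 1.08 over IG. Cd14, a lipopolysaccharide co-receptor of myeloid cells, stood out with 971 ± 37.3 in TG, 202 ± 27.6 in NG and 1424 ± 116 in IG. Taf7, a general transcription factor gene between the beta and gamma clusters, had 346 ± 59.6 in TG, 274 ± 46.0 in NG and 316 ± 25.1 in IG and passed in no comparison.

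Within the gamma cluster lies Gm26672, a noncoding gene on the opposite strand, which was named after its values were seen. It had 79 and 55 reads in TG, 10 and 14 in NG, and 57 and 53 in IG. Its normalised level was 13.3 ± 5.06 in NG, against 52.8 ± 12.3 in IG, with a log2 fold change of -1.94 ± 0.33 (SE; limma, adjusted p = 0.0017). In TG it was 63.2 ± 0.566, with a log2 fold change over NG of 2.21 ± 0.33 (SE; limma, adjusted p = 6.1e-04). Whether counting used strand is not given in the sources used here, so reads of this gene and of gamma transcripts cannot be told apart. The lincRNA 3222401L13Rik, just before the gamma cluster on the plus strand and likewise chosen after its values were seen, had 11.1 ± 2.05 in TG, 28.1 ± 1.21 in NG and 15.9 ± 2.75 in IG, and was lower in TG than in NG (log2 fold change -1.27).

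Beta genes are close paralogs, so some reads could fit more than 1 gene. Of the 50-base stretches of a beta gene's exons, between 0% for Pcdhb1 and 11.99% for Pcdhb12 also occur in another gene of the tables, with 11.3% for Pcdhb21. The values of the beta genes with the larger shares are uncertain to that extent, as are those of Pcdhb21 and Pcdhb22, whose exons overlap.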

How the data were processed

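The authors deposited 3 tables, each for a pair of groups. The deposited count columns hold a signal already normalised: each library's reads were divided by its size factor, and both libraries of a group were averaged. Beside them, per the file headers, stand the authors' log2 fold change, p-value and adjusted p-value; the deposited log2 values of NG and IG run as IG over NG, and were turned round here. The submitters' processing notes name Bowtie2 2.0.6, HTSeq 0.6.1 and mm10; which annotation, counting settings and statistical tool were used is not given in the sources used here.

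Since a group stands in 2 tables with different factors, the reads of its libraries were solved from both means, and all came out whole within 0.001 reads. They were rescaled by the median-of-ratios method and tested with limma 3.58.1 in R 4.3.3, with a trended prior, a pseudocount of 1 and 1 fit of all 6 libraries (24511 genes with a read in any library; 3 residual and 5.23 prior degrees of freedom). The script was tested on simulated data. Fold changes on this scale understate changes of low genes. Symbols from GENCODE M21 matched 34490 of 35275 IDs.

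Members named are the alpha and gamma rows, the 2 beta genes highest per unique kilobase, those with 0 reads in a library, the 3 called members at either end of the fold changes, and those whose call differs from most of their cluster; of other lists, the 2 called genes at either end. Members and lists were chosen with earlier results of these data known. The floor of 3 reads covers only the counting error of the group at 0 reads. The list of protocadherin-cleaving proteases is not reported here.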

Additional observations from a re-analysis of the deposited data

How the results depend on the processing

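Every member called in a comparison kept its direction there under all alternatives run. Settings were pseudocounts of 0.5 and 5, no filter or at least 10 reads in 2 libraries, other scalings, no variance trend, only the 4 libraries compared, each library left out, and, chosen after seeing the data, voom weights on the recovered reads and the authors' deposited test. For NG over IG the members called, all lower, numbered 10 with no filter and 8 to 17 with a library left out, against 20. Their median log2 fold change was -0.96 at a pseudocount of 5 and -1.31 to -1.06 with a library left out, and all genes called numbered 6252 to 7566 with a library left out, against 9818. All genes called for NG over IG numbered 6853 with no filter, against 9818. The log2 ratio of the beta sum was -1.09 when scaled to all assigned reads, against -1.01. Fewer of all genes were also called for TG over NG in every fit with a library left out. For TG over NG 13 to 20 members were called, all higher, with a library left out, against 21, and the median was 1.11 at a pseudocount of 5. For TG over IG 0 members were called with no filter, 1 without the variance trend (Pcdhb7) and 0 to 1 with a library left out, against 2, all of them higher. All genes called there numbered 1401 with no filter, 1318 without the trend and 0 to 1012 with a library left out, against 2779; the share higher among them was 24.2% without the trend, against 36.7%. Scaled to all assigned reads, the log2 ratios for TG over IG were 0.029 for the beta sum, 0.46 for the alpha row and -0.14 for the gamma row, against 0.10, 0.53 and -0.06. The cause of these shifts was not tested, though leaving out a library leaves 2 degrees of freedom among samples and assumes that the lone sample varies like the other groups. No paired analysis was possible because the deposited columns are group means that carry no replicate number, and a fit with the number as a block could not be made. The planned edgeR and DESeq2 fits on the recovered reads were not run; the voom fit is the only one here that weights by read number. Counting all exon bases left the order of beta levels per kilobase nearly as it was (Spearman's rho 0.999). With a median of 38 reads per gene and library, depth limits the precision of the beta genes.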
